A study of Mus musculus with 8 samples.

Results

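Heart follicular-type B cells were single cells from the hearts of 4 transplanted mice, named for the B cell and follicular marker transcripts by which they were picked. They were chosen on raw counts of unique molecular identifiers (UMIs, each standing for 1 captured transcript). A barcode needed at least 200 genes, at most 10% mitochondrial UMIs, and at least 10 hashtag UMIs of which at least 80% were of the heart hashtag. It also needed at least 3 UMIs of Cd79a, Cd79b and Ms4a1 together, at least 1 UMI of Fcer2a, Cr2 and Ighd together, no UMI of Dnase1l3, Il5ra, Ctla4 or Fcrl5, and at most 2 UMIs of C1qa, C1qb and C1qc together. Of 11130 barcodes in the series, 5323 were heart barcodes past the filters, and 110 of these were members. Control replicates 1 and 2 gave 19 and 42 members, and stroke replicates 1 and 2 gave 10 and 39. The same gate in blood held 265 cells (51, 29, 30 and 155 in the same order of mice).

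The study asked what bone marrow of stroke donors does to the leukocytes of blood and heart in new hosts. All 4 recipients were Mx1Cre:c-Mybfl/fl mice, in which floxed c-Myb, a gene that blood-forming cells need, can be deleted by a Cre under the interferon-inducible Mx1 promoter to empty the marrow; 2 received control marrow and 2 stroke marrow. Leukocytes from the blood and the heart of each mouse carried separate hashtag antibodies, were sorted as CD45+CD11b+ cells, which the labels call myeloid, and pooled into 1 droplet library per mouse. The deposited labels used here give neither the ages of the animals nor how many host leukocytes were left, and with 1 library per mouse the mouse and the library cannot be told apart.

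Follicular B cells are the naive, recirculating B cells that pass between blood, lymphoid organs and tissues until their antigen receptor meets its antigen. They carry surface IgM and IgD, the low-affinity IgE receptor CD23 (Fcer2a) and complement receptor CD21 (Cr2), enter follicles along CXCL13 through CXCR5, and leave tissues towards the sphingosine-1-phosphate of blood and lymph through S1PR1. Stimulation through the antigen receptor, CD40 or Toll-like receptors first switches on immediate early genes such as Fos, Junb and Atf3, whose promoters are ready for transcription before any new protein is made, and then NF-kB targets and the costimulatory proteins CD86 and CD83. The heart holds a standing population of B cells, many of them in the lumen of or attached to small vessels.

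The 4 libraries held between 2020 and 3303 barcodes and between 10059365 and 16482961 gene UMIs. Xist had 1 UMI and the Y-linked Ddx3y 599 in control replicate 1, whose cells read as male, while the cells of 3 mice read as female. The sex of the sequenced cells thus differs within the control group. In transplanted mice these counts describe leukocytes of donor or host and do not give the sex of the recipient. Of all 16-base cell barcodes 14 occurred in more than 1 library, and none of these was a heart member. Members had a median of 3876 UMIs and 1591 genes per cell, and their summed counts were 98530, 169313, 46304 and 167879 UMIs in control replicates 1 and 2 and stroke replicates 1 and 2; 4 values are given in this order throughout. Stroke replicate 1, with 10 cells, was the thinnest sum. The median member carried 99.8% of its hashtag UMIs from the heart antibody, and 3 members fell under 95%.

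The markers fitted the name. Cd79a, a signalling chain of the B cell receptor, had a UMI in all 110 members. Ighd (the IgD heavy chain) was seen in 79.1%, Fcer2a in 61.8% and Cr2 in 58.2% of members. In sums, the follicular marker list of Cd79a, Fcer2a, Ighd and Cr2 lay between 2629 and 3520 CPM (UMIs scaled to a common library total) in the 4 hearts. In heart B cells that carried a UMI of Dnase1l3, Il5ra, Ctla4 or Fcrl5 the same list lay between 1892 and 2405 CPM. Because the gate chose cells by these genes, the values describe the members and support nothing further. Outside the gate genes, Pax5, the transcription factor that holds B cell identity, had 529, 499.9, 333 and 502 CPM, and Ebf1, which acts with it, had 1947, 1696, 1841 and 2500.0 CPM.

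The marker of the sort was seen in few members. Itgam, which encodes CD11b, had 32 UMIs in 21 of the 110 members (19.1%), with none in stroke replicate 1. The same gate in blood gave 17.7%. Other heart B cells gave 28.4%, and heart barcodes outside the B cell gates gave 57.3%. These shares are not corrected for depth, with a median of 3876 UMIs in members and 6330 UMIs in other heart B cells. Scaled to library totals, Itgam stood at 84.7, 83.3, 0 and 61.3 CPM in members. In other heart B cells it lay between 50.4 and 81.1 CPM, so that members were not lower throughout.

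Most members stood well inside the gate on Cd79a, Cd79b and Ms4a1, with a median sum of 18 UMIs (3 to 58). The follicular condition was closer to its edge. Its median was 4 UMIs (1 to 14), 16 members entered with exactly 1 UMI of Fcer2a, Cr2 or Ighd, and 45 heart cells that met every other condition stayed out with 0. A further 57 heart cells stayed out with a single UMI of Dnase1l3, Il5ra, Ctla4 or Fcrl5. The C1q limit touched little: 97 members had 0 UMIs, 12 had 1 and 1 had 2.

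RNA of other lineages sat in few members. The neutrophil list (S100a8, S100a9, Retnlg, Csf3r, Cxcr2, Mmp9) had 1001 UMIs over the members, and 996 of them lay in 5 cells, at least 1 in each heart. Its sum ranged from 500.4 to 5399 CPM over the hearts and from 25.7 to 2377 CPM in the blood cells of the same gate, and none of its genes was at 0. Of the 9 macrophage markers, with 518 UMIs, 460 UMIs lay in 12 cells, and the sum ranged from 173 to 2456 CPM in heart and from 193 to 4229.6 CPM in blood. All 7 T cell genes were at 0 in heart members, and 4 of 5 NK cell genes were. Over all lists, 13 heart members (2, 7, 2 and 2 by mouse) and 36 blood cells had more than 3 UMIs of another blood lineage. Results are given with these cells, and without them where the value moved.

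Members were IgM cells with unswitched heavy chains. Ighm was seen in all 110 members with 926 UMIs, and Ighd in 87 with 225 UMIs. Switched isotypes were rare: Ighg3 had 13 UMIs in 3 cells, Ighg2b 4 UMIs in 1 cell, Ighg2c and Igha 1 UMI each, and Ighg1 and Ighe none. The proliferation gene Top2a had a UMI in 4.55% of members and Mki67 in 1 cell.

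By light chain, taken as the larger of the Igkc and the summed Iglc1, Iglc2 and Iglc3 counts with at least 2 UMIs, 104 members were kappa, 4 were lambda and 2 were neither. The lambda share was 3.64% of heart members (exact Clopper-Pearson 95% interval 1.00% to 9.05%), with 1 lambda cell in each mouse. In blood cells of the same gate it was 14.7% (10.7% to 19.6%), with 13.7%, 20.7%, 20% and 12.9% by mouse. The heart share was below the blood share in each of the 4 mice. Other heart B cells had 16.3% (12.8% to 20.3%) and other blood B cells 20.6%. These intervals cover counting error over pooled cells only, and the difference was not tested. Variable genes could be assigned for few cells: 16 light chains spread over 10 genes and 13 heavy chains over 12 genes.

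Members were a small part of the heart leukocytes in every mouse, and their share did not separate the donor groups. They made up 2.59% (1.57% to 4.01%), 2.67% (1.93% to 3.59%), 0.604% (0.290% to 1.11%) and 2.87% (2.05% to 3.91%) of heart barcodes. The mean was 2.63% ± 0.0552 (SD, n = 2) with control marrow and 1.74% ± 1.61 (SD, n = 2) with stroke marrow, a difference of -0.889 percentage points (exact two-sided permutation p = 1; 2 mice against 2 cannot go below 0.333). Stroke replicate 1 alone was low, and without it the difference was 0.246 points in the other direction. As a share of heart B cells the values were 12.8%, 22.1%, 14.9% and 25.2%, so that the stroke mean (20% ± 7.24) was above the control mean (17.5% ± 6.55) by 2.57 points (exact permutation p = 0.667).

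In blood the same gate held 4.48%, 2.94%, 2.18% and 11.8% of barcodes. The heart share was lower in 4 of 4 mice, with a mean difference of -3.18 points (2.18% ± 1.06 against 5.36% ± 4.43, SD, n = 4). The exact two-sided sign-flip permutation test gave p = 0.125, the smallest it can give with 4 mice. Stroke replicate 2, whose blood was rich in B cells (988 of 1309 barcodes), set much of the size: without it the difference was -1.25 points. Among B cells of an organ the heart share was lower in 3 of 4 mice, and the order turned in stroke replicate 2 (25.2% in heart, 15.7% in blood; exact permutation p = 0.25 over the 4 mice). All shares are of the sorted CD45+CD11b+ fraction and not of the organ.

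**Figure D1:**
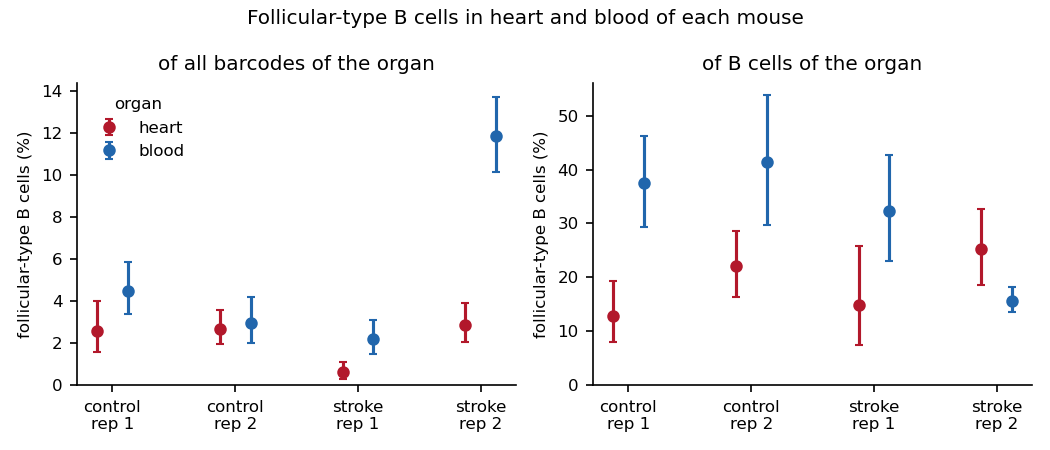
Follicular-type B cells as a percentage of all barcodes (left) or of all B cells (right) of heart (red) and blood (blue) in each mouse, with exact 95% Clopper-Pearson intervals for counting error. Heart lies below blood in all 4 mice on the left, and stroke replicate 2 reverses that order on the right.

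The files also list 2 fluorescent protein transgenes, whose carriers the labels do not name. The transcript named agfp had a UMI in 10.5%, 19.0%, 30.0% and 15.4% of heart members and in 15.7%, 34.5%, 40.0% and 14.2% of blood cells of the same gate. After each cell was thinned to 1000 UMIs the shares were 0%, 9.52%, 20% and 10.3% in heart and 8.16%, 25%, 20% and 7.84% in blood. The difference of -5.31 points did not pass (exact sign-flip permutation p = 0.5, lower in 2 of 4 mice). Among heart barcodes outside the B cell gates 23.6%, 43.7%, 47.6% and 44.3% had the transcript after thinning, above the members in each mouse. No cell type known to lack the transgene was at hand to set the level of free RNA. The transcript kgfp was seen only in control replicate 1, in 10.5% of its heart members.

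Heart and blood follicular-type cells of the same mouse were then compared with edgeR's quasi-likelihood test on UMI counts summed per mouse and organ, with the mouse as a block and Benjamini-Hochberg adjustment over all genes tested (threshold 0.05). CPM of single genes among the members carry edgeR's TMM factors, which differ slightly between comparisons, and CPM of marker lists do not. Of 2373 genes tested, 107 were called (4.51%), 76 higher in heart (3.2%) and 31 lower (1.31%). The genes with the lowest p were transcription factors and feedback regulators of the immediate early response, the costimulatory genes Cd86 and Cd83, the NF-kB subunit Rel, and Crem and Vps37b. Without the 13 heart and 36 blood cells that carried RNA of another lineage 92 genes were called (3.88%), 59 higher (2.49%) and 33 lower (1.39%), and 76 of them were among the 107. The fixed lists below were chosen with earlier results of these data in view. The gate gene Cr2 was also among the 107 and is not read as a result. Where the organs are said not to overlap, the genes were chosen by this same contrast, so this is a description and no further support. The share of all tested genes without overlap was not counted. Organ cannot be told apart here from how the cells of each organ were freed and handled before pooling.

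Immediate early genes were the group with most calls in heart members. Of the 24 genes on the list 14 had counts high enough to test, 9 were higher in heart and none lower, against 3.2% of all genes called higher. The median log2 fold change of the 14 was 1.49, against -0.01 over all genes tested. Promoter sequences of the 4 called members with the lowest p are shown because genes of this group are known to carry cAMP response elements or their shorter core, the binding letters of CREB and ATF proteins, close to their start. Each is the 250 bases before the annotated start, 5′ to 3′ on the gene's strand, from RefSeq on GRCm38.p6. Capitals mark the core TGACG or the full element TGACGTCA, read on both strands, so that CGTCA is the core on the other strand. The regions are chr12:85473640-85473889 (plus strand) for Fos, chr1:191183334-191183583 (minus) for Atf3, chr17:26508473-26508722 (minus) for Dusp1 and chr8:84978749-84978998 (minus) for Junb.
Fos: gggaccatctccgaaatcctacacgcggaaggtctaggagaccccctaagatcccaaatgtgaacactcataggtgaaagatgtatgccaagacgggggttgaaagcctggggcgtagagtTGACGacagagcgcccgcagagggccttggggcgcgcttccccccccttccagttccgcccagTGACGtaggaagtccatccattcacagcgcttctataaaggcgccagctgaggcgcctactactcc
Atf3: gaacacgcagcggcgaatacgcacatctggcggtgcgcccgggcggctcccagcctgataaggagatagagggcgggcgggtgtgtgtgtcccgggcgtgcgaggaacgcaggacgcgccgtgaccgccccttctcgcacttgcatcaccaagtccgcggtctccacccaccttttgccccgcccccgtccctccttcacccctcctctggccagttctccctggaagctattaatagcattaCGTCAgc
Dusp1: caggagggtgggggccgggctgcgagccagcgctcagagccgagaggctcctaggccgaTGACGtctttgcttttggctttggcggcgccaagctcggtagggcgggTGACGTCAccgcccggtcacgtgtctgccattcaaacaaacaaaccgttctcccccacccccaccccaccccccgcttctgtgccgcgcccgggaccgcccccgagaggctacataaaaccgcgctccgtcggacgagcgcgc
Junb: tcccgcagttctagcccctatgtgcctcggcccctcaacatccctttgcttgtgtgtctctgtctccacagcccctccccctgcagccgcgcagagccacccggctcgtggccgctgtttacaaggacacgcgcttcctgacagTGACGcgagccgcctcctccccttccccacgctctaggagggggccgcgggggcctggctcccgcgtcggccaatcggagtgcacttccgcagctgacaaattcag

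The core occurred in each of the 4 windows: 2 times in Fos, at -129 to -125 and at -66 to -62 from the start, 1 time in Junb at -106 to -102, 1 time in Atf3 at -7 to -3, and 3 times in Dusp1, where 2 of the matches overlap within 1 full element. Over the promoters of 27025 genes of the same length, 19.8% held the core and 1.77% the full element, every full element holding cores. Of the 9 called immediate early genes 8 were in the sequence table; 6 of them held the core and 3, Dusp1, Btg2 and Ppp1r15a, the full element. None of the 8 held the AP-1 letters TGANTCA (7.82% of all genes) or a serum response element core (CArG box, 1.62%) in this window. Over the whole list, 20 genes were in the sequence table. Of these 12 held the core, 3 the full element, 1 the AP-1 letters and 2 a CArG box, so that 6 of the 12 with the core were genes not called in heart against blood, several of them too low to test. A match describes letters and not a bound site.

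Junb, a JUN-family partner in the AP-1 transcription factor, stood at 952, 1035, 2195 and 987 CPM in heart and at 86.2, 93.0, 89.3 and 102 CPM in blood. The organs did not overlap, and stroke replicate 1 was the highest heart. The log2 fold change was 3.61 (SE 0.22, edgeR adjusted p = 1.3e-16). A Junb UMI was present in 83.6% of heart members and 33.2% of blood cells.

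Fos, the other classical AP-1 subunit, had 646, 434, 1641 and 355 CPM in heart against 36.9, 31.0, 26.8 and 34.1 CPM in blood. Every heart was above every blood, by a log2 fold change of 4.07 (SE 0.28, edgeR adjusted p = 2.4e-15). In control replicate 1, 44 of 61 Fos UMIs came from 1 barcode. Without cells that carried RNA of another lineage the fold change was 3.87.

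Atf3, a stress-responsive ATF/CREB repressor, had 275, 119, 510 and 196 CPM in heart and 16.4, 23.2, 8.93 and 18.4 CPM in blood (log2 fold change 3.69, SE 0.34, edgeR adjusted p = 4.53e-11). Only 20% of heart members had an Atf3 UMI, so its sums rested on fewer cells than those of Junb. Dusp1, a phosphatase that switches off MAP kinases, had 360, 131, 288 and 172 CPM in heart and 20.5, 23.2, 0 and 14.4 CPM in blood (3.77, SE 0.37). Ppp1r15a (GADD34), which restores translation after stress, had 423, 214, 88.7 and 159 CPM against 8.21, 23.2, 17.9 and 24.9 CPM (3.37, SE 0.35). For all 3 genes the organs did not overlap.

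The other called members were Dusp2 (1.64), Jun (1.60), Ier2 (1.33) and the antiproliferative gene Btg2 (0.93), as log2 fold changes of heart over blood with edgeR adjusted p between 0.000556 and 0.00822. Jun was uneven: it had 307, 89.3, 399 and 61.3 CPM in heart, and without the cells with RNA of another lineage its fold change was 0.80 (edgeR adjusted p = 0.307). Btg2 (0.58) and Dusp2 (1.45) also missed the threshold in that setting, and 6 of the 9 remained called there. Klf4, not called with all members, was called in that setting (2.95, edgeR adjusted p = 0.00285). The 5 tested genes that did not pass with all members were Klf4 at 1.38, Klf6 at 0.57, Jund at 0.35, Ier5 at 0.21 and Zfp36l1 at 0.19.

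These transcripts were seen across the members of each heart. At least 4 of the 9 called immediate early genes had a UMI in 62 of 110 heart members (56.4%), with 63.2%, 50.0%, 70.0% and 56.4% by mouse. In blood this held for 21 of 265 cells (7.92%). These shares describe genes chosen by the same contrast and are no further support for it. By mouse the median depth was 4962, 3490.5, 4133.5 and 3853 UMIs in heart and 3542, 3894, 3278 and 4501 UMIs in blood, so that heart cells were the deeper ones in control replicate 1 and stroke replicate 1. After thinning to 1000 UMIs, at least 2 of the 9 genes were seen in 57.9%, 50%, 60% and 61.5% of heart members and in 12.2%, 7.14%, 6.67% and 10.5% of blood cells, of which 5 were too shallow and left out; this count of genes was chosen after the values were seen.

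**Figure D2:**
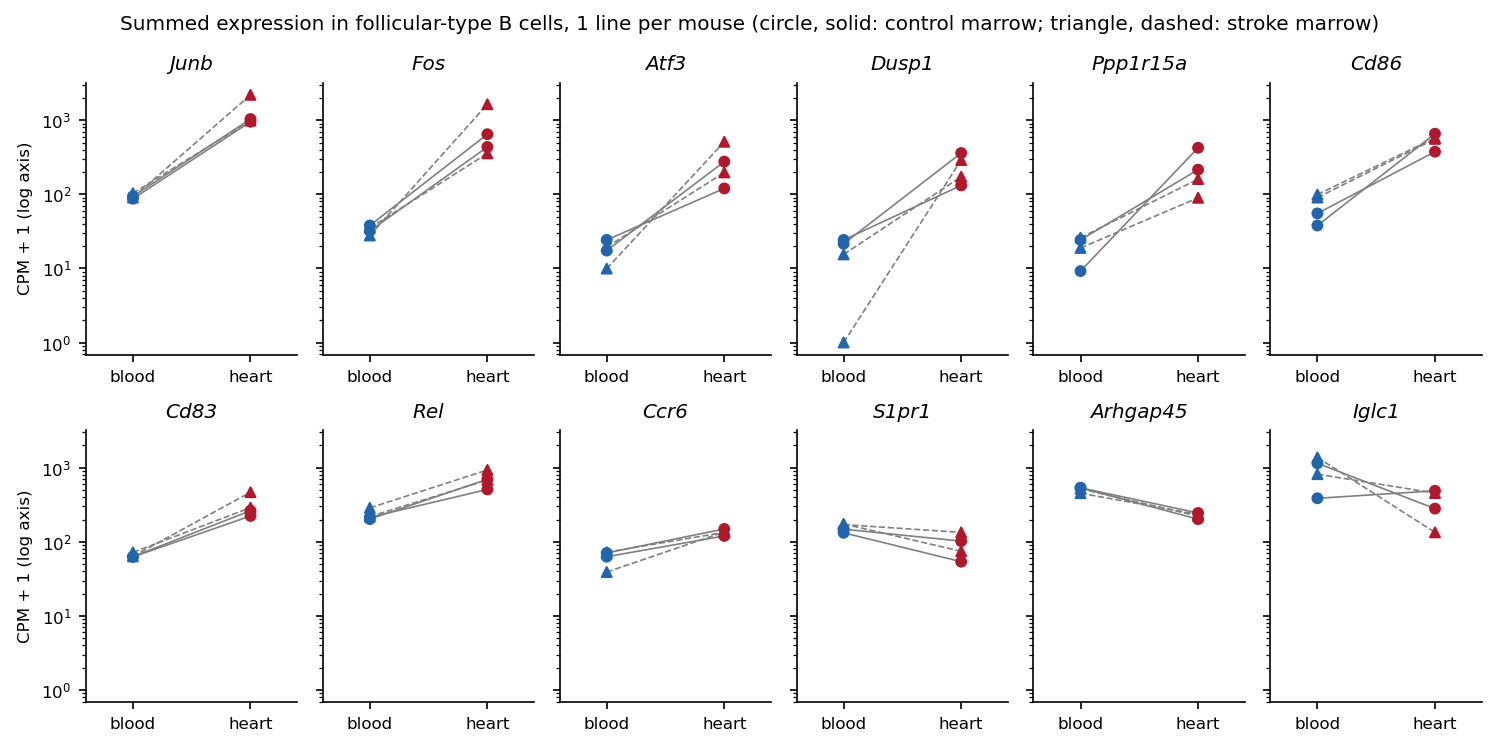
CPM + 1 on a shared log axis in blood (blue) and heart (red) for 12 named genes, 1 line per mouse, with circles and solid lines for control marrow and triangles and dashed lines for stroke marrow. Junb, Fos, Atf3, Dusp1, Ppp1r15a, Cd86, Cd83, Rel and Ccr6 are higher in heart in all 4 mice, S1pr1 and Arhgap45 are lower in all 4, and Iglc1 is lower in 3.

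Cd86, Cd83 and Rel, from the list of NF-kB signalling and activation, were higher in heart members. Of 23 on the list 9 were tested, and 3 were called higher in heart and none lower, against 3.2% and 1.31% of all genes. The median log2 fold change was 0.64, and the same number passed without cells that carried RNA of another lineage. Cd86, the costimulatory ligand of CD28 on T cells, had 656, 375, 577 and 558 CPM in heart against 36.9, 54.2, 98.3 and 89.3 CPM in blood (2.97, SE 0.25, edgeR adjusted p = 1.91e-12). Cd83, a marker of activated antigen-presenting cells that stabilizes MHC class II at the surface, had 222, 262, 466 and 288 CPM against 61.5, 62.0, 62.5 and 70.9 CPM (2.12, SE 0.25). Rel, the c-Rel subunit that B cells use in activation, had 508, 696, 931 and 680 CPM against 213, 201, 286 and 218 CPM (1.59, SE 0.20). None of the 3 overlapped between organs. Cd69, an early activation marker, was at -0.31 and Nfkbia, the NF-kB inhibitor, at 0.64, and neither passed (edgeR adjusted p = 0.183 for Nfkbia).

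Outside the lists, Crem, a cAMP-responsive regulator, had 169, 119, 177 and 233 CPM in heart against 20.5, 15.5, 8.93 and 23.6 CPM in blood (log2 fold change 3.24, SE 0.35). Vps37b, a subunit of the ESCRT-I sorting complex, had 413, 327, 665 and 343 CPM against 36.9, 38.7, 17.9 and 47.3 CPM (3.30, SE 0.27). Plaur, the urokinase receptor, had 233, 417, 643 and 263 CPM against 61.5, 62.0, 80.4 and 85.3 CPM (2.16, SE 0.25). In each of them every heart stood above every blood, with edgeR adjusted p between 7.78e-13 and 1.22e-08.

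Among genes of the follicular programme and of recirculation, Ccr6, Btg1 and Satb1 were called higher and S1pr1 lower in heart. Of 23 listed, 3 were gate genes and 16 of the others were tested, so that 3 higher and 1 lower stand against 3.2% and 1.31% of all genes. Ccr6, the receptor for CCL20, had 148, 119, 133 and 135 CPM in heart against 69.7, 62.0, 71.5 and 38.1 CPM in blood (1.30, SE 0.32, edgeR adjusted p = 0.0077). S1pr1, the exit receptor, had 52.9, 101, 133 and 73.5 CPM against 131, 147, 170 and 173 CPM (-0.90, SE 0.28, edgeR adjusted p = 0.0498), lower in heart in 4 of 4 mice with a slight overlap of the organs. That call lay at the threshold and was lost in 10 of 14 alternative settings; its direction was kept in all of them.

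Btg1, which holds lymphocytes in quiescence, was higher in heart at 0.78 (SE 0.18, edgeR adjusted p = 0.00332), with 1037, 768, 1020 and 1464 CPM against 706, 550, 527 and 675 CPM. Satb1, a chromatin organizer, was higher at 1.05 (SE 0.22), with stroke replicate 1 the highest heart at 821 CPM. The homing genes Klf2 (0.08), Ccr7 (0.15) and Cxcr5 (0.31) did not pass.

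Around the antigen receptor 3 of 22 tested genes were called higher in heart and none lower, against 3.2% and 1.31% of all genes. Pik3ap1 (BCAP), an adaptor that links the receptor to PI3-kinase, had 222, 232, 288 and 263 CPM against 135, 101, 71.5 and 74.8 CPM (1.41, SE 0.25, edgeR adjusted p = 9.63e-05). Inpp5d (SHIP1), the lipid phosphatase that counters PI3-kinase, was at 0.75 and Malt1, a paracaspase of antigen receptor signalling, at 0.76. Both overlapped between organs and were lost in many alternative settings, Inpp5d in 8 and Malt1 in 10 of 14. Malt1 missed the threshold without the cells that carried RNA of another lineage (0.52, edgeR adjusted p = 0.184). The kinases Lyn (0.36), Syk (-0.33) and the protein kinase C gene Prkcb (-0.04) did not pass.

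Further single calls came from the lists of survival and of transitional cells. Bcl2l11 (BIM), a pro-apoptotic BH3 protein, had 201, 95.2, 155 and 116 CPM in heart against 24.6, 31.0, 53.6 and 48.6 CPM in blood (1.76, SE 0.35, edgeR adjusted p = 0.000514). It was the only one of 7 tested survival genes to pass, against 3.2% of all genes called higher. Cd24a, a surface glycoprotein high on immature B cells, had 180, 202, 244 and 245 CPM against 144, 124, 107 and 122 CPM (0.80, SE 0.24, edgeR adjusted p = 0.0395). Of the transitional list 3 genes were tested, and Cd24a alone passed. Lists with so few tested genes are not read as results. Neither gene overlapped between the organs. The Cd24a call was lost in 10 of 14 alternative settings, whereas that of Bcl2l11 was kept in all 14.

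Of the B cell identity list 1 of 19 tested genes was called, a share near the 4.51% of all genes. This was Ly6d, a surface protein of early and mature B cells, at 0.52 (SE 0.13, edgeR adjusted p = 0.0109), with 2349, 2368, 2728 and 2849 CPM in heart and 1391, 1635, 2197 and 2057 CPM in blood. MHC class II genes had 0 of 10 called (median 0.20), with Cd74, the invariant chain, at 0.22 and H2-Aa at 0.35. The list of heat shock and dissociation genes had 0 of 8 called (median 0.04). Type I interferon genes had 0 of 9, Toll-like receptor genes 0 of 5, marginal zone genes 0 of 4 and B-1 genes 0 of 6. No germinal centre gene was high enough to test. Ribosomal protein genes had 1 of 77 called, Rplp1, and 75 of the 77 lay above 0 with a median of 0.24.

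**Figure D3:**
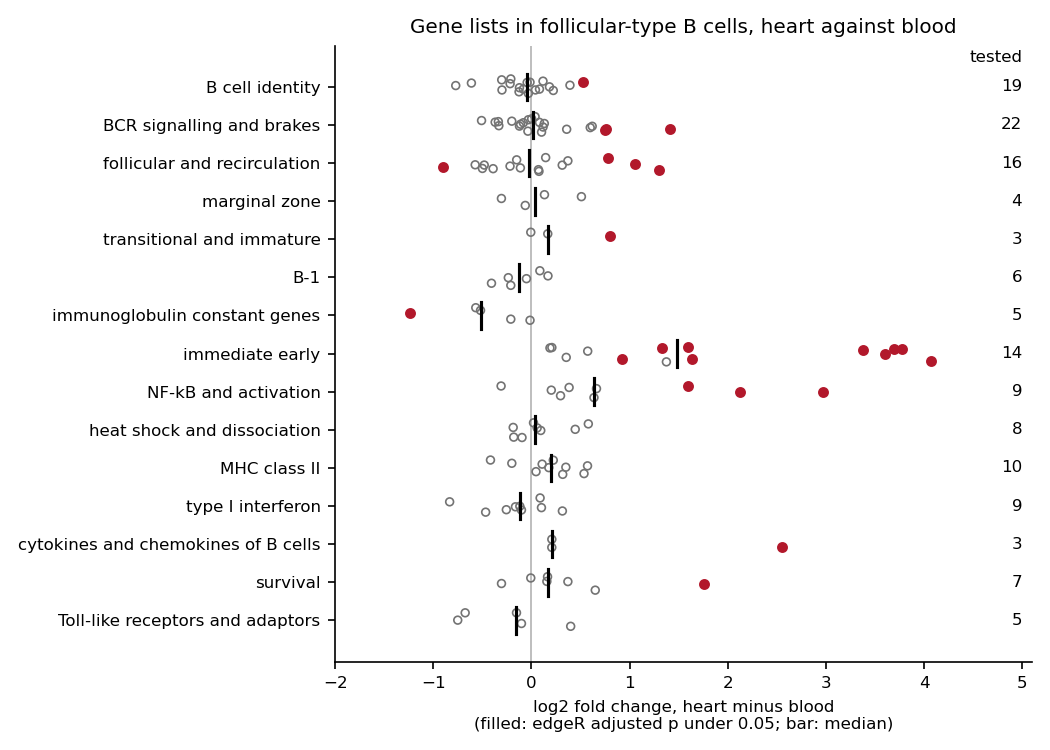
Log2 fold change of heart over blood for every tested gene of the lists with at least 3 tested genes, gate genes left out; filled points passed edgeR's test, bars are medians and the numbers at the right count tested genes. The immediate early list lies furthest to the right, with a median of 1.49.

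Among the 31 genes lower in heart, Arhgap45, a GTPase-activating protein of leukocytes, had 201, 244, 222 and 233 CPM against 533, 535, 518 and 452 CPM in blood (-1.15, SE 0.21, edgeR adjusted p = 0.000258). It was among the tightest of the changes, with no overlap. Gm15987 (-1.16), Pgap1 (-1.02), Hist1h1e (-1.08), March1 (-0.75) and Ccnd3 (-0.75) also did not overlap. Ccnd3 encodes cyclin D3, the D-type cyclin of mature B cells, and March1 a ubiquitin ligase that removes CD86 and MHC class II from the surface. Klf3, a transcriptional repressor, was at -1.06 and Tagln2, an actin-binding protein, at -0.99, each lower in 3 of 4 mice. Of 14 alternative settings, the call was lost in 6 for Ccnd3, 5 for Hist1h1e and 1 for Pgap1. It was lost in 4 each for March1, Klf3 and Tagln2. The calls of Arhgap45 and Gm15987 were kept in all 14.

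Iglc1, a lambda light chain constant gene, had 487, 280, 133 and 453 CPM in heart against 386, 1147, 1376 and 817 CPM in blood (-1.24, SE 0.26, edgeR adjusted p = 0.00159). It was lower in 3 of 4 mice, and control replicate 1 was the exception. Only 1 member of each heart was lambda by its light chain counts (4 of 110), so that the heart sums may rest on few cells. Iglc2 was at -0.52 and did not pass (edgeR adjusted p = 0.146). Without the cells that carried RNA of another lineage, Iglc3 was called lower in heart along with Iglc1. Reads can be shared between lambda constant genes where their sequences are alike, and the effect of this on the split was not tested. Ighm (-0.21) and Igkc (-0.01) did not pass.

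Several calls moved with RNA of other lineages. S100a9, a neutrophil gene, was at 3.37 and Il1b at 2.55, higher in heart in 4 of 4 mice, but S100a9 had UMIs in 8 and Il1b in 7 of 110 members. Without the cells that carried RNA of another lineage they were at -0.20 (edgeR adjusted p = 0.945) and -0.14 (0.98). Apoe, a macrophage gene, was lower in heart at -1.59, and at -0.60 without those cells (edgeR adjusted p = 0.437). Zeb2 (-0.89) missed the threshold there too (-0.66, edgeR adjusted p = 0.157). S100a4 (-1.59 without those cells) and Cst3 (-1.72) stayed called. With those cells left out the values for Junb (3.62), Cd86 (2.80), Cd83 (2.24) and Rel (1.51) were close to those with them.

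Most of the organ difference was also seen in other B cells. Heart and blood B cells with a UMI of Dnase1l3, Il5ra, Ctla4 or Fcrl5, which are different cells from the same mice and libraries, gave 705 of 6387 genes called (11%) in the same test, 403 higher in heart (6.31%) and 302 lower (4.73%). Of the 107 follicular-type calls 106 were tested there, 102 had the same direction and 81 were called in it, which is 75.7% of the follicular-type calls and 11.5% of the calls in the other B cells. Junb was at 3.64, Fos at 4.93, Atf3 at 4.10, Cd86 at 2.82 and Cd83 at 3.06 in the other B cells. Ccr6 (0.86, edgeR adjusted p = 0.0987) and Satb1 (0.67, 0.209) did not pass there, S100a4 (0.05) and Cst3 (0.24) were near 0, and Ms4a6c was the 1 gene called in opposite directions (-1.18 and 0.62). Whether any gene differed between the B cell classes in its organ difference was not tested.

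**Figure D4:**
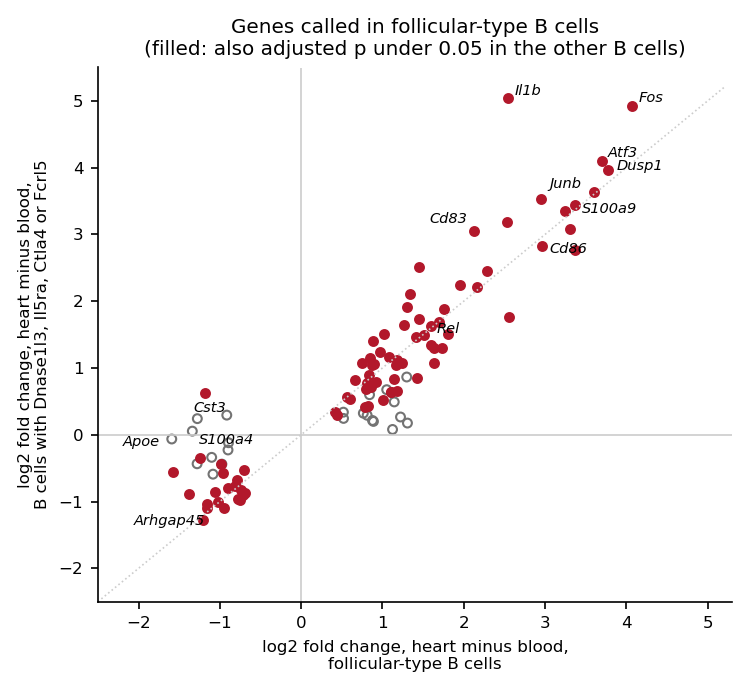
Log2 fold change of heart over blood in follicular-type cells (horizontal) against the other B cells (vertical) for the genes called in the former, Cr2 left out; filled points were also called in the latter and the dotted line marks equal values. Most points lie in the quadrants of equal sign, and S100a4 and Cst3 lie near 0 on the vertical axis.

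Cells of other types in the same hearts shared part of it. After thinning to 1000 UMIs a Fos UMI was present in 21.1%, 28.6%, 50.0% and 25.6% of heart members and in 4.08%, 3.57%, 3.33% and 1.96% of blood cells of the gate. In NK-type cells (at least 5 UMIs of 5 NK genes) it was present in between 7.14% and 14.8% of heart and between 0% and 1.02% of blood cells. Of heart macrophage-type cells between 69.4% and 76.2% had it. Without thinning, 65.5% of heart members had a Cd86 UMI against 1.17% of heart NK-type cells, at median depths of 3876 and 2833 UMIs. The Cd86 share of heart macrophage-type cells is not reported here, so these values do not make Cd86 particular to the members. The part of free RNA in the Fos and Cd86 counts of members was not tested.

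Between donor groups no gene passed in heart members. In edgeR's quasi-likelihood test over 4 heart sums 0 of 2225 genes were called (0%), with 81 at an unadjusted p under 0.05; DESeq2 called 0, with 15 at an unadjusted p under 0.05. With 1 mouse left out the test called 9 genes without either control mouse and 26 or 16 without the first or the second stroke mouse. Each such fit has a lone mouse in 1 arm that is assumed to vary like the other group. No gene of any fixed list passed. Immediate early genes had 8 of 17 tested above 0 with a median log2 fold change of -0.02, and MHC class II genes 2 of 10 with -0.23, against a median of -0.0049 over all genes.

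The lowest p belonged to Cxcl2, a neutrophil-attracting chemokine, with 329, 221, 42.8 and 0 CPM (log2 fold change -4.65, edgeR adjusted p = 0.0775). It had 32 UMIs in 1 cell of control replicate 1, 38 in 2 cells of control replicate 2 and 2 in the first stroke mouse, with 0 in the second, and none was left without the cells that carried RNA of another lineage. Gm10076, a predicted gene, had 401, 1503, 193 and 114 CPM (-2.79, SE 0.57, edgeR adjusted p = 0.272). Its groups did not overlap and control replicate 2 stood far above control replicate 1. Barcodes outside the gate had the same order: heart Gm10076 was at 185, 718, 78.7 and 42.5 CPM and blood Gm10076 at 187, 899, 111 and 89.7 CPM.

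Cmss1 (5818, 2679, 1927 and 2141 CPM), Gm42418 (28584, 17764, 15141 and 14929 CPM) and Rps29 were lower and Rps2 (2446, 1695, 3769 and 3874 CPM), Ccnd2, Senp6, Tuba1b, Lamtor2 and Fth1 higher with stroke marrow, and none of them passed. Outside the gate heart Cmss1 stood at 4562, 2561, 2805 and 2587 CPM, with control replicate 1 the highest there as well. Other genes did not follow the members outside the gate: heart Gm42418 stood at 27880, 17783, 24359 and 24374 CPM, Rps2 at 1757, 1102, 1295 and 1491 CPM, and Cxcl2 at 761, 1367, 2030.0 and 1976 CPM, which is higher with stroke marrow. Gm42418 is a predicted gene known for carrying ribosomal RNA reads.

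Leaving out the 13 heart members with RNA of another lineage gave 7 calls between donor groups. Among them, Gm10076 (-2.75), Cmss1 (-1.19) and Gm42418 (-0.74) were lower and Atf3 (2.72), Fos (1.68) and Rps2 (0.85) higher with stroke marrow, with edgeR adjusted p between 2.2e-05 and 0.0314. Fos then stood at 12, 32, 45 and 57 UMIs, or 153, 247, 1210.4 and 353 CPM without TMM factors, and Atf3 at 5, 4, 20 and 32 UMIs. With all members Fos had 627, 425, 1585 and 349 CPM and its groups overlapped (0.78, SE 0.53, edgeR adjusted p = 0.996). Stroke replicate 1 was the highest heart for Fos in both settings. These 7 calls rest on a selection made after the data were seen. Junb (925, 1013, 2120 and 968 CPM), Cd86 (637, 367, 557 and 547 CPM) and Ighm (1994, 1695, 2013 and 2087 CPM) did not pass in either setting.

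**Figure D5:**
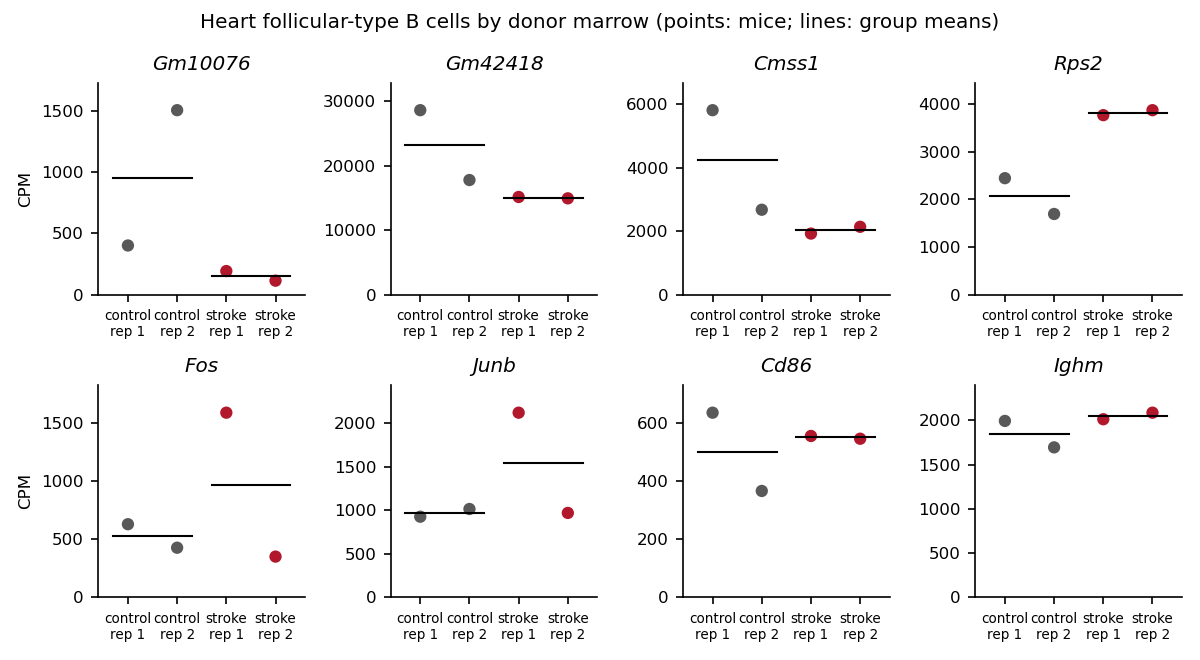
CPM of 8 genes in heart follicular-type B cells of each mouse (grey, control marrow; red, stroke marrow), with lines at group means; no gene passed edgeR's test with all members. Gm10076 is highest in control replicate 2, Gm42418 and Cmss1 in control replicate 1, and Fos and Junb in stroke replicate 1.

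Whether the organ difference itself depended on the donor was tested with the interaction term of the 8 sums. Of 3089 genes 26 were called by edgeR (0.842%), 14 (0.453%) with a larger and 12 (0.388%) with a smaller heart-over-blood difference after stroke marrow (202 at an unadjusted p under 0.05); DESeq2 called 0, with 24 at an unadjusted p under 0.05. The 14 included the neutrophil genes S100a8, S100a9 and Retnlg, and Il1b, Fcer1g and Tyrobp. The 12 were 10 ribosomal protein genes, Igkc and Gm42418. Of 77 ribosomal genes tested 75 lay below 0 with a median of -0.36. Rps20 is an example: heart had 6740.3, 7269, 7251 and 7825 CPM. Its blood had 4622 and 4532 CPM with control marrow and 7107 and 7583 CPM with stroke marrow. For this gene the blood values and not the heart values separated the donors. This did not hold for all 10 genes. Heart values also separated the donors for Rps24, Rpl13, Rpl32 and Rplp1. For Rps21 the blood values overlapped (2383 and 3783 CPM against 3571 and 3771 CPM). The neutrophil genes rested on single cells, as S100a9 shows, with 1698, 1039, 3428 and 285 CPM in heart and 1144, 7.57, 17.9 and 14.7 CPM in blood. Without the cells with RNA of another lineage 1 of the 26 calls was left, Gm42418. Immediate early (18 tested) and NF-kB genes (16 tested) had no call.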

How the data were processed

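The deposited matrix holds counts of UMIs for each gene and each hashtag in every barcode, made with Cell Ranger 7.1.0 on mm10 per the submitters' processing notes and not normalized by the authors. All 4 libraries stand in 1 matrix; barcode suffixes 1 to 4 were matched to the sample numbers in the labels, an assumption that every donor comparison rests on. Organ was read from the hashtags. Counts of gated cells were summed per mouse and organ and tested with edgeR 4.0.16 (R 4.3.3; quasi-likelihood, TMM scaling, filterByExpr, Benjamini-Hochberg over all genes tested); DESeq2 1.42.0 was an alternative. Standard errors are the size of the log2 fold change over the square root of F. Simulated counts were drawn from 1 mean per gene and 1 dispersion per design, with changed genes moved 4-fold. The heart-against-blood design then gave back 170 of 171 changed genes (of 2351), the donor design 152 of 176 (of 2218). The interaction design gave back 78 of 189 (of 2979), so that absent calls of the interaction carry less weight. Differences between mice and genes carried by single cells were not simulated, so these rates do not give the power in the real data. Scrublet (scanpy 1.11.5) was run per library as an alternative only. Shares used exact permutation tests, and thinning drew 1000 UMIs per cell. Gene positions came from GENCODE vM21, in which 32158 of 32285 identifiers were found. Nothing states that the mice of a group are separate transplants, so p-values measure the spread between these samples.

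Named genes were the 12 of lowest p in each direction with at least 20 UMIs (all where 24 or fewer were called, the 6 of lowest p each way where none was), called members of fixed lists and the up to 4 members of highest level. Other genes were named after their values were seen. Members and lists were chosen with earlier results of these data known. Some genes that the rule names are not reported here.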

Additional observations from a re-analysis of the deposited data

Results flagged for a closer look

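All 26 genes with a called interaction of donor and organ are listed here, since their heart-over-blood differences differed between the donor groups by edgeR's test; values are log2 differences, stroke minus control. Myeloid genes among them that are on the marker lists of other lineages were S100a9 3.55, S100a8 3.39, Retnlg 3.90 and Apoe 1.86. Further myeloid genes, not on those lists, were Il1b 3.83, Fcer1g 3.73, Tyrobp 1.93, Lst1 2.78, Fyb 3.43 and Hmox1 8.67. Hmox1 has 0 CPM in 3 of the 8 sums, so its size depends on the prior count. The interferon-inducible membrane genes Ifitm3 (2.88) and Ifitm2 (3.44), the surrogate light chain gene Vpreb3 (2.28) and the protein disulfide isomerase Pdia6 (2.01) were also above 0. Ifitm3 rested on few cells: in control replicate 1, 25 of 26 heart UMIs and 44 of 87 blood UMIs came from 1 barcode each.

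Below 0 were the ribosomal protein genes Rps20 at -0.58, Rpl27a at -0.60, Rps24 at -0.47, Rpl30 at -0.57, Rpl37a at -0.56, Rpl19 at -0.57, Rpl13 at -0.39, Rps21 at -0.58, Rpl32 at -0.47 and Rplp1 at -0.42. Igkc was at -0.48 and Gm42418 at -0.61. The neutrophil list, which moved with the first set, ranged from 500.4 to 5399 CPM over the hearts and from 25.7 to 2377 CPM over the bloods. Without the cells that carried RNA of another lineage only Gm42418 was called, and the part of those cells in each value was not otherwise tested.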

How the results depend on the processing

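The organ comparison called 107 genes, and 47 with DESeq2, 50 without the replicate block, and between 42 and 131 with 1 mouse left out (57 without control replicate 2, 42 without stroke replicate 2). Fos, Junb, Cd86, Cd83, Rel, Atf3, Dusp1, Ppp1r15a, Crem, Vps37b and Plaur kept direction and call in every setting that tested them. With cells carrying RNA of another lineage left out, S100a9 (-0.20) and Il1b (-0.14) reversed.

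The donor comparison called 0 genes, and 7 without the low-count filter, 2 with the organ call at 95% of hashtag UMIs, 1 with C1q UMIs at 0, 2 without Scrublet calls, 7 without cells of mixed lineage (added after seeing the data), 3 with the replicate block and between 9 and 26 with 1 mouse left out. Deviations of control and stroke replicate 1 from their group means had r = 0.00356 over 2225 genes. With 2 mice per group this value cannot show whether mice of the same replicate number shared a batch.

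The interaction called 26 genes, and 0 with DESeq2, 9 without the filter, 1 with C1q UMIs at 0, 4 without Scrublet calls, 11 with at least 2 follicular UMIs, 1 without cells of mixed lineage and between 6 and 33 with 1 mouse left out. With 1 mouse left out, Retnlg lay between -2.49 and 8.09, S100a8 between -0.058 and 5.31 and S100a9 between -1.56 and 5.65, each lowest and reversed without control replicate 1 and highest without stroke replicate 2; without cells of mixed lineage, Retnlg (-2.12), Il1b (-4.81), S100a9 (-1.16) and Lst1 (-0.55) did.

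The heart share, stroke minus control, was between -2.02 and 0.246 points with 1 mouse left out and 2.57 points of B cells. Heart minus blood was between -4.15 and -1.25 points and -13.0 points of B cells. The transgene difference was between -7.88 and -1.92 points with 1 mouse left out and 1.20 points at 2 or more UMIs. Where no alternative's construction shows a cause, the cause was not tested. Depth limits stroke replicate 1 most: 10 cells with 46304 UMIs.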
